A study of Mus musculus with 12 samples.

Results

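Ccl3, Ccl4, Ccl5 and Xcl1 encode the chemokines that natural killer T (NKT) cells and natural killer (NK) cells release as part of their effector response. They were chosen by gene symbol, and all 4 were found among the 23284 genes of each of 2 deposited tables. NKT cells are T cells whose receptor reads lipids on CD1d, and they were sorted from thymus and liver of C57BL/6 mice as live cells that bound CD1d dimer, carried a T cell receptor beta chain and lacked CD4, CD8 and CD45R. In each tissue 3 libraries of NKT cells of double-negative (DN) origin, called cKO, stand against 3 libraries of NKT cells of double-positive (DP) origin, called YFP+, and the comparison asks how cells that arise before the DP stage of thymocyte development differ from those that pass through it. Both kinds of mouse carry the same transgene, Cre recombinase under the E8III enhancer, which acts at the DP stage. In cKO mice it deletes a floxed Rag2 gene. In YFP+ mice no Rag2 deletion is named and the Cre opens a Rosa26-loxP-STOP-loxP reporter. Origin and kind of mouse go together, so an effect of cell origin and an effect of the mouse cannot be told apart. Ages are not given in the sources used here.

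Chemokines are small secreted proteins that draw cells along a gradient through G protein-coupled receptors. Ccl3 and Ccl4 (MIP-1 alpha and MIP-1 beta) and Ccl5 (RANTES) are CC chemokines, and Ccl3 and Ccl5 signal through the receptor Ccr1. Xcl1 (lymphotactin) acts on Xcr1, the receptor of cross-presenting dendritic cells. Ccl3 and Ccl4 transcription is switched on quickly by antigen receptor signals, whereas Ccl5 is known as a late gene of effector and memory T cells whose RNA is held ready in resting cells. Xcl1 is made by NK cells, activated CD8+ T cells and NKT cells, and in the thymus it draws dendritic cells into the medulla.

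RefSeq promoter sequences of build GRCm38.p6 matched 2 of the 4 genes, Ccl3 and Xcl1, and both are shown. Both RNAs were lower in cKO liver, as was that of Ccl4, which had no match. The 250 bases before each annotated start are printed 5′ to 3′ on the gene's own strand, at chr11:83649379-83649628 (minus strand) and chr1:164935523-164935772 (minus strand). Capitals mark matches, on either strand, to 6 motifs searched: AP-1 TGANTCA, CRE TGACGTCA, NF-kB (GGG, any 2 letters, then TTTCC), the NFAT core GGAAA, RUNX TGTGGT and T-box GGTGTGA. The NFAT core can lie within an NF-kB match.
Ccl3: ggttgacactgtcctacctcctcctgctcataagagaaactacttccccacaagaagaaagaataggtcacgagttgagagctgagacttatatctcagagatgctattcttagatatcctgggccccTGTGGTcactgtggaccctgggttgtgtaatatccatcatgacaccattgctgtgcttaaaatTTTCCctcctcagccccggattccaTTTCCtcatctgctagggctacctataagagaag
Xcl1: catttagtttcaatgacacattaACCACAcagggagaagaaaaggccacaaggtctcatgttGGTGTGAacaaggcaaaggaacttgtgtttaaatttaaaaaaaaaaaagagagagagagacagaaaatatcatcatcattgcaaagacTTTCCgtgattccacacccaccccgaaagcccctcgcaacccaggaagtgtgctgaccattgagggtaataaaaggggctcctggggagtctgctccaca
Ccl3 held the NFAT core in 2 places, 59 to 55 and 34 to 30 bases before the start, and a RUNX match whose far end lies 122 bases before it. Xcl1 held 1 NFAT core match at 100 to 96 bases, a RUNX match at 227 to 222 and a T-box match at 188 to 182. Of 32851 RefSeq promoters cut to the same length, 55.6% held the NFAT core, 14.0% the RUNX motif and 3.33% the T-box motif. The shares were 6.75% for AP-1, 1.55% for CRE and 1.41% for NF-kB, which had no match in these windows. A match is a run of letters, and binding was not measured.

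FPKM divide a transcript's fragments by its length and by the library's mapped fragments, so levels of different genes can be set side by side within a library. FPKM sums were 187828 to 194655 in thymus cKO and 198790 to 212688 in thymus YFP+ libraries. In the liver they were 450429 to 465304 in cKO and 509267 to 558042 in YFP+ libraries. Genes at 0 numbered 4033 to 4370 against 4571 to 5740 in the thymus and 6702 to 6841 against 8800 to 8869 in the liver. The groups were thus apart in both measures, and the part of this in the shares of genes called lower was not tested. Read totals, hence depth, are unknown. Rag2, the targeted gene, did not exceed 0.015 FPKM in any thymus library. In the liver it was listed at 0 in the 3 libraries titled cKO and at 0.985 to 1.365 FPKM in those titled YFP+. Rag1, not named as deleted, was at 0.146 to 0.223 against 1.328 to 1.957 FPKM there. The other listed DP thymocyte markers were likewise lower in every liver library titled cKO. The Rag2 values alone therefore do not settle which liver label is right. The description field of the 6 liver samples names the opposite mouse from the title. Groups follow the titles and the column headers, and should the descriptions be right, each liver direction below turns round. All 8 NKT markers were above 1 FPKM in every library. In cKO thymus 4 of the 8 were called lower, namely Cd3e, Il2rb, Cxcr6 and Zbtb16, which encodes the NKT factor PLZF and was at 3.154 to 4.274 FPKM against 11.01 to 13.54 (limma adjusted p = 2.38e-04). In cKO liver Cd3d and Cxcr6 were called lower and Il2rb higher. Of all genes tested, 13.1% were called lower in the thymus, and 27.2% were called in either direction in the liver. The part of these markers in the chemokine differences was not tested. The tables were normalized separately, so levels are not tested across tissues. The 1 test that spans both tables compares the difference between groups within each. In bulk RNA, fewer cells making a transcript and less of it per cell cannot be told apart. Nothing in the labels ties replicates to different mice. The p-values here then cover only the spread among these libraries, which may be technical.

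The 4 RNAs spanned a wide range, in the same order in all 12 libraries: Ccl5 was highest, then Xcl1, then Ccl4, and Ccl3 was lowest. In thymus cKO libraries Ccl5 ranked 8 to 17 among all genes and made up 0.469 to 0.802% of the FPKM sum, and in thymus YFP+ libraries it ranked 88 to 101, with 0.111 to 0.136%. In liver cKO libraries Ccl5 ranked 15 to 16, with 0.780 to 0.811% of the sum, and in liver YFP+ libraries 40 to 44, with 0.385 to 0.440%. Ccl5 was thus among the most abundant transcripts of these cells in both tissues. Xcl1 ranked between 217 and 759 over the 12 libraries. Ccl4 ranked between 1999 and 8066 and Ccl3 between 6129 and 10015, levels at which many genes lie.

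**Figure D1:**
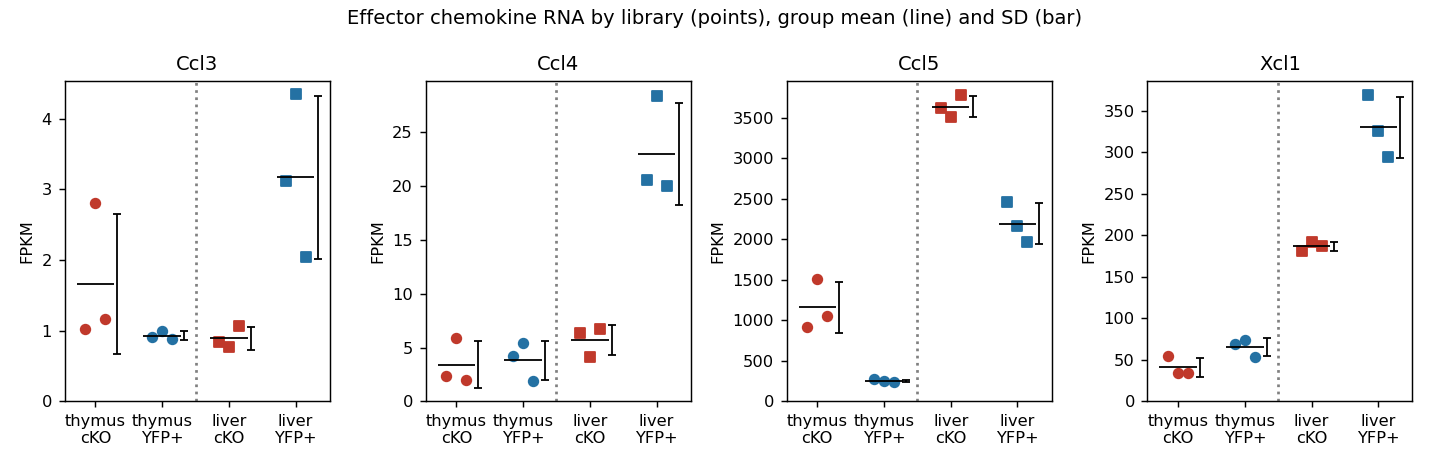
FPKM of the 4 chemokine genes (linear axes from 0, 1 panel a gene) in each of the 12 libraries; red is cKO, blue is YFP+, circles are thymus and squares are liver, with the group mean as a line and the SD as a bar. Ccl5 is higher in cKO in both tissues without overlap, while Ccl3, Ccl4 and Xcl1 are lower in all 3 liver cKO libraries.

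Ccl5 RNA was higher in cKO than in YFP+ cells in both tissues, by 4.59-fold in the thymus and 1.66-fold in the liver (ratios of mean FPKM). Thymus cKO replicates 1, 2 and 3 were at 913.6, 1507 and 1057 FPKM, and thymus YFP+ replicates at 270.5, 250.8 and 236.6. Every cKO library lay far above every YFP+ library. In the liver the cKO libraries were at 3617, 3513 and 3773 FPKM and the YFP+ libraries at 2453, 2169 and 1960, again without overlap. Differences below are cKO minus YFP+ on the log2(FPKM + 1) scale, given relative to the median tested gene, which itself lay at -0.16 in the thymus and -0.11 in the liver. Each p tests the difference before that median is taken off. The Ccl5 difference was 2.33 ± 0.16 (SE) in the thymus (limma adjusted p = 2.19e-04) and 0.84 ± 0.09 in the liver (limma adjusted p = 0.00121). Called means a Benjamini-Hochberg adjusted p under 0.05 in limma over every gene averaging 1 FPKM or more, and 2.64% of the 9097 genes tested in the thymus and 7.49% of the 9591 tested in the liver were called higher. The call held under each of the 12 alternatives run in either tissue, at adjusted p of up to 0.00423 in the thymus and 0.0118 in the liver.

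Xcl1 RNA was lower in cKO liver, at 186.9 ± 5.55 against 329.7 ± 37.2 FPKM in YFP+ liver (mean ± SD over 3 libraries each). The liver cKO libraries were at 181.2, 192.3 and 187.0 FPKM and the YFP+ libraries at 368.6, 325.8 and 294.6. The groups did not overlap, and the cKO values lay within a narrow band. The liver difference was -0.70 ± 0.09 (adjusted p = 7.51e-04, limma), where 19.7% of tested genes were called lower. In the thymus the cKO libraries were at 54.05, 34.52 and 34.43 FPKM and the YFP+ libraries at 68.95, 73.46 and 53.02. Here cKO replicate 1 lay above YFP+ replicate 3, so the groups overlapped. The thymus difference of -0.51 ± 0.19 passed narrowly (limma adjusted p = 0.0465), where 13.1% of tested genes were called lower. That call ended in 8 of 12 alternatives: with median-ratio scaling (adjusted p = 0.149), with quantile normalization (0.146), with no filter on low values (0.128), and on leaving out cKO replicate 2 (0.124) or 3 (0.134) or any of YFP+ replicates 1, 2 and 3 (0.118, 0.122 and 0.0679). Without cKO replicate 1 it was at 0.00293.

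Ccl4 RNA was 4.01-fold lower in cKO than in YFP+ liver, and showed no called difference in the thymus. In the liver the cKO libraries were at 6.368, 4.124 and 6.697 FPKM and the YFP+ libraries at 20.58, 28.38 and 19.96. Every YFP+ value was well above every cKO value, a difference of -1.73 ± 0.19 (limma adjusted p = 5.15e-04). In the thymus the cKO libraries were at 2.321, 5.891 and 2.027 FPKM and the YFP+ libraries at 4.230, 5.420 and 1.854. These ranges overlap almost wholly, with cKO replicate 2 the highest and YFP+ replicate 3 the lowest of the 6. The thymus difference was 0.01 ± 0.37 (limma adjusted p = 0.767), an SE that leaves changes of moderate size undetectable with 3 libraries a group.

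Ccl3 RNA was 3.55-fold lower in cKO than in YFP+ liver by mean FPKM. The liver cKO libraries were at 0.845, 0.763 and 1.070 FPKM and the YFP+ libraries at 3.118, 4.348 and 2.039, without overlap. The difference was -1.0 ± 0.21 (limma adjusted p = 0.00661), a value that the pseudocount of 1 makes smaller at such low levels and that was -1.54 with a pseudocount of 0.1. In the thymus the cKO libraries were at 1.020, 2.808 and 1.165 FPKM and the YFP+ libraries at 0.907, 0.998 and 0.885. The cKO values were all higher, though only replicate 2 stood well above the rest, and the difference of 0.57 ± 0.22 was not called (limma adjusted p = 0.216). Groups without overlap were common. In the thymus they made up 42.9% of tested genes, 5.34% with cKO higher and 37.6% with cKO lower. In the liver they made up 44.3%, 14.7% with cKO higher and 29.6% with cKO lower. Ccl3 and Ccl4 were highest in the same cKO thymus library, replicate 2, and in the same liver YFP+ library, also replicate 2. RefSeq gene spans of Ccl3 and Ccl4 overlap, as do those of Ccl5 and Gm32650, a non-coding gene absent from the tables. Whether exons overlap was not examined, and the use of strand in counting is not stated. Reads from any shared stretch cannot be assigned with certainty.

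All 4 genes were called in the liver, 1 higher and 3 lower, against 27.2% of all genes tested there. In the thymus 2 of 4 were called, 1 higher and 1 lower, against 15.7%.

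**Figure D2:**
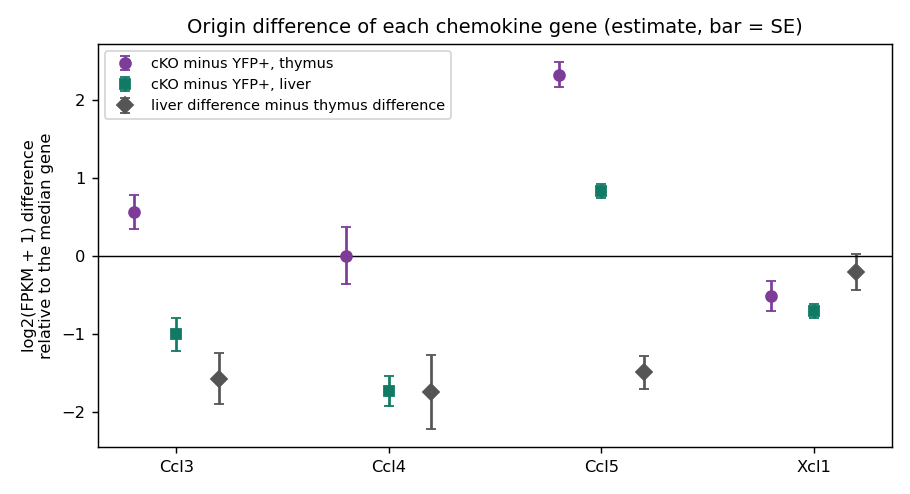
Difference between cKO and YFP+ for each chemokine gene on the log2(FPKM + 1) scale relative to the median tested gene (points, with SE bars), in the thymus (circles), in the liver (squares), and the liver difference minus the thymus difference (diamonds). Ccl5 lies above 0 in both tissues, at 2.33 and 0.84, and Ccl3, Ccl4 and Xcl1 lie below 0 in the liver, at -1.0, -1.73 and -0.70.

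With the liver groups taken from the titles, the origin difference itself differed between tissues for 3 of the 4 genes, tested as an interaction over all 12 libraries. Each tissue has its own table, so an effect of tissue and an effect of table cannot be told apart in this test. The liver difference minus the thymus difference was -1.49 ± 0.21 for Ccl5 (limma adjusted p = 0.001), -1.57 ± 0.33 for Ccl3 (0.0102) and -1.74 ± 0.47 for Ccl4 (0.0324). By the titles, Ccl5 was raised less in cKO liver than in cKO thymus, and Ccl3 and Ccl4 were shifted towards lower values in cKO liver. Of 9739 genes tested, 5.91% were called in this direction, 9.14% in the opposite one and 15.1% in either. For Xcl1 the value was -0.20 ± 0.23 (limma adjusted p = 0.741), which shows no call and does not show equal differences. These values rest on which liver label is right, and exchanging the liver groups changes their size, their sign or both. With the liver groups taken from the description field, an alternative chosen after seeing the data, the value was -3.15 ± 0.21 for Ccl5 (limma adjusted p = 1.62e-06) and 1.74 ± 0.47 for Ccl4 (0.00679). For Xcl1 it was then 1.23 ± 0.23 (limma adjusted p = 6.24e-04), and for Ccl3 0.44 ± 0.33 and not called (0.117). Only Ccl5, of the 4, was called with the same sign under both labels. That sign follows from the sizes, since exchanging the labels turns only the liver difference. For Ccl5 the thymus difference of 2.33 is larger than the liver difference of 0.84. By the description field Ccl5 would be lower in cKO liver rather than raised less there. The Ccl4 call was lost with a pseudocount of 0.1 (adjusted p = 0.0696) and when low genes were kept (0.085). It was also lost without thymus cKO replicate 2 (0.0583), thymus YFP+ replicate 1 (0.0517) or 3 (0.0664), liver cKO replicate 2 (0.0748) or liver YFP+ replicate 2 (0.0749).

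Ratios within a library do not depend on its scaling, and 4 were tested, Ccl5 over Xcl1 and Ccl4 over Ccl3 in each tissue. Ccl5 over Xcl1 was 16.9, 43.7 and 30.7 in thymus cKO and 3.92, 3.41 and 4.46 in thymus YFP+ libraries. In the liver it was 20, 18.3 and 20.2 in cKO and 6.65, 6.66 and 6.65 in YFP+ libraries. The groups were apart in both tissues. The exact two-sided permutation p was 0.1 each, the smallest that 3 against 3 libraries allow, or 0.2 adjusted over the 4 tests. In the liver every cKO library was higher in Ccl5 and lower in Xcl1 than any YFP+ library. The ratio groups could therefore not overlap there, and this ratio restates the differences of the single genes. The liver YFP+ ratio varied by only 0.00173 (SD, n = 3). Ccl4 over Ccl3 was 2.28, 2.1 and 1.74 in thymus cKO and 4.66, 5.43 and 2.09 in thymus YFP+ libraries (exact permutation p = 0.3). In the liver it was 7.54, 5.40 and 6.26 in cKO and 6.60, 6.53 and 9.79 in YFP+ libraries (exact permutation p = 0.4), overlapping ranges.

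**Figure D3:**
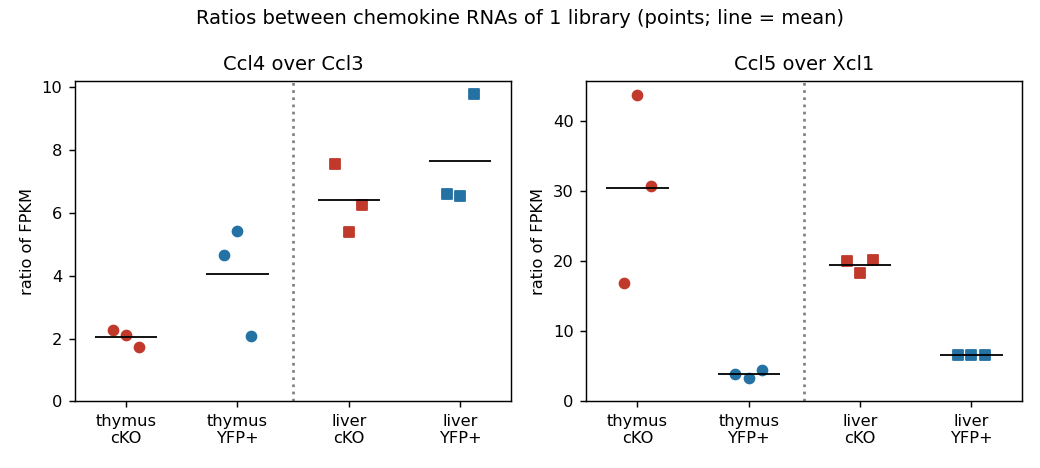
Ratio of FPKM of Ccl4 over Ccl3 (left) and of Ccl5 over Xcl1 (right) within each library (points; red cKO, blue YFP+; lines are means of 3). Ccl5 over Xcl1 is higher in every cKO library of a tissue than in any YFP+ library, while Ccl4 over Ccl3 overlaps in both tissues.

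Ccl5, Ccl9, Ccl6, Ccl3 and Ccl4 follow each other in this order on chromosome 11 among genes of the tables, with the non-coding gene E230016K23Rik between Ccl9 and Ccl6. Ccl6 and Ccl9 encode CC chemokines best known from myeloid cells, and in the thymus neither exceeded 0.223 FPKM. In the liver Ccl9 was at 56.39, 50.67 and 54.43 FPKM in cKO and 37.77, 32.84 and 46.46 in YFP+ libraries, a difference of 0.58 ± 0.13 (limma adjusted p = 0.0268). Ccl6 was at 3.921, 5.540 and 5.190 against 9.834, 8.291 and 6.533 FPKM, a difference of -0.53 ± 0.17 (limma adjusted p = 0.0254). Neither pair of groups overlapped, yet both calls were lost in several alternatives: that of Ccl9 with no filter on low values and without liver cKO replicate 1, 2 or 3 or YFP+ replicate 2, and that of Ccl6 also with either rescaling and without liver cKO replicate 1 or 3 or YFP+ replicate 1 or 2 (adjusted p of up to 0.0902 and 0.0845). E230016K23Rik, taken up for its place after its values were seen, was at 6.816, 6.324 and 7.283 FPKM in cKO liver, against 1.984, 1.983 and 2.023 in YFP+ liver. This difference of 1.49 ± 0.12 (limma adjusted p = 2.16e-04) held in each of the 12 alternatives. The next measured genes outward differed less. Taf15, an RNA-binding protein gene beside Ccl5, was at 0.33 ± 0.12 (limma adjusted p = 0.189) and Heatr6, beside Ccl4, at 0.07 ± 0.16 (limma adjusted p = 0.882) in the liver.

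Most other chemokine genes were barely present. Of 34 listed, 33 stayed below 1 FPKM in every thymus cKO library and 33 in every thymus YFP+ library, and 7 reached the tested level in the liver. The exception in the thymus was Cxcl10, an interferon-induced ligand of Cxcr3, at 21.63, 0.907 and 4.669 FPKM in cKO and 2.476, 2.538 and 1.492 in YFP+ libraries (limma adjusted p = 0.337), with cKO replicate 1 far above the rest. In the liver Cxcl10 was at 7.196, 8.179 and 9.421 against 5.491, 3.417 and 6.167 FPKM, called higher in cKO (limma adjusted p = 0.0389). Cxcl2, a neutrophil attractant, was at 9.779, 9.422 and 10.98 against 17.81, 13.24 and 12.67 FPKM, called lower (limma adjusted p = 0.0359). Both calls were fragile. That of Cxcl10 was lost with no filter on low values and without liver cKO replicate 1, 2 or 3 or YFP+ replicate 2 (adjusted p of up to 0.122), and that of Cxcl2 was lost in 9 of 12 alternatives (up to 0.173). Ccl1, a T cell chemokine, Cxcl3 and Cxcl9 were not called in the liver, at limma adjusted p of 0.963, 0.583 and 0.537. Pf4, platelet factor 4, did not reach the tested level there, with 0 to 1.136 FPKM in cKO and 1.323 to 1.619 in YFP+ libraries.

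Of 3 receptor genes described, Xcr1, which encodes the Xcl1 receptor, was the most abundant in every library. Xcr1 was at 1.154 to 1.986 FPKM in thymus libraries and 37.04 to 52.66 in liver libraries, with no called difference in either (limma adjusted p = 0.764 and 0.162). Ccr1, a receptor of Ccl3 and Ccl5, was at 1.073, 0.760 and 0.999 against 1.970, 1.666 and 1.793 FPKM, lower in cKO (limma adjusted p = 0.0214). That call was lost without liver cKO replicate 2 or 3 or YFP+ replicate 1 or 2 (adjusted p of up to 0.0726). Ccr3 did not exceed 0.075 FPKM in any library. Of these 3 receptor genes, 1 was tested in the thymus and 2 in the liver.

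**Figure D4:**
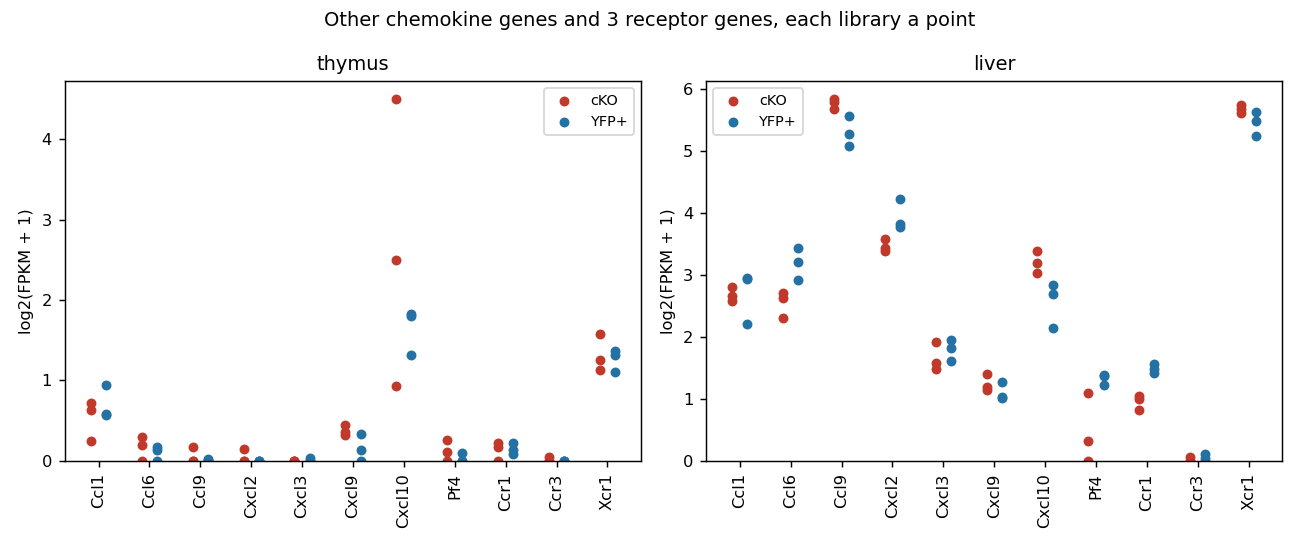
Other chemokine genes with a group mean of at least 1 FPKM, and 3 receptor genes, as log2(FPKM + 1) in each library of the thymus (left) and liver (right); red is cKO and blue is YFP+. Cxcl10 is spread from 0.907 to 21.63 FPKM over the thymus cKO libraries, and Ccl9 and Xcr1 are the highest genes in the liver.

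Cytokine genes that activated NKT and NK cells express together with these chemokines moved both ways. Of 12 listed, 9 were tested in the thymus and 10 in the liver. In cKO thymus 2 were higher (Ifng, Il2) and 3 lower (Ltb, Il4, Fasl), with a median of -0.09 relative to the median gene. In cKO liver 2 were higher (Il2, Tnfsf14) and 3 lower (Ifng, Lta, Fasl), with a median of -0.25. Of all genes tested, 2.64% were called higher and 13.1% lower in the thymus, and 7.49% and 19.7% in the liver. Ifng, the type 1 cytokine, was at 41.04, 71.80 and 63.22 FPKM in thymus cKO against 18.73, 24.32 and 11.47 in YFP+ libraries, a difference of 1.82 ± 0.28 (limma adjusted p = 0.00824). In the liver Ifng was at 34.00, 31.07 and 32.88 against 59.56, 56.43 and 57.84 FPKM, lower by -0.70 ± 0.08 (limma adjusted p = 3.66e-04). Ifng thus lay higher in cKO thymus with Ccl5 and lower in cKO liver with Ccl3, Ccl4 and Xcl1. Il2, a T cell growth factor, was higher in cKO in both tissues, like Ccl5: 2.905, 2.642 and 2.120 against 0.935, 0.782 and 0.835 FPKM in the thymus (limma adjusted p = 0.00211), and 5.679, 8.221 and 7.252 against 2.527, 1.264 and 0.976 in the liver (0.00181). Tnf, tumour necrosis factor, was at 2.348 to 5.897 FPKM over thymus libraries, at 3.742 to 6.190 over liver libraries, and was not called (limma adjusted p = 0.176 and 0.557). Csf2, which encodes GM-CSF, was below the tested level in the thymus and not called in the liver (limma adjusted p = 0.393).

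Transcription factors and signalling genes linked to these chemokines were called in both tissues. Of 18 tested in the thymus 1 was higher and 4 lower, where 15.7% of all genes were called, with counts of 2 to 8 called over the alternatives. Of 17 in the liver 0 were higher and 4 lower in limma, with 0 higher and 5 lower at an unadjusted p under 0.05, where 27.2% of all genes were called. With array weights 8 were called in the liver, and without liver YFP+ replicate 1, 7. Tbx21, which encodes T-bet, was at 58.19 to 78.06 FPKM over thymus libraries, at 17.84 to 26.90 over liver libraries, and was not called in either (limma adjusted p = 0.241 and 0.159), but passed in the thymus with array weights and without cKO replicate 1. Klf13, a factor named for driving late Ccl5 transcription in T cells, was not called in the thymus (limma adjusted p = 0.892). In the liver it was at 105.7, 108.0 and 114.0 against 138.8, 135.0 and 126.2 FPKM, called lower (limma adjusted p = 0.0233), opposite to Ccl5. The Klf13 call was lost with either rescaling, with a replicate block and without liver cKO replicate 1 or 2 or YFP+ replicate 2 (adjusted p of up to 0.738). Nfkbia, an inhibitor and target of NF-kB, was at 103.7, 162.1 and 162.5 against 84.67, 92.23 and 85.69 FPKM in the thymus (difference 0.83, limma adjusted p = 0.0323) and at 107.7, 114.1 and 109.0 against 188.7, 262.4 and 259.3 in the liver (difference -0.97, 9.04e-04). The thymus call of Nfkbia was lost with no filter on low values and without any single library but cKO replicate 1 (adjusted p of up to 0.111). Bhlhe40 and Irf1, factors of effector cytokine programmes, were lower in cKO liver by -1.12 and -0.76 (limma adjusted p = 3.14e-04 and 7.51e-04) and not called in the thymus (0.838 and 0.198).

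Of 19 listed immediate early and receptor response genes, 15 were tested in each tissue. In cKO thymus 8 were higher and 2 lower (median 0.91), and in cKO liver 1 was higher and 7 lower (median -0.41), against 15.7% and 27.2% of all genes called in either direction. The thymus count of 10 fell to 6 with no filter on low values, with a replicate block and without YFP+ replicate 3, and to 5 without cKO replicate 2 or 3 or YFP+ replicate 1. Jun, another AP-1 subunit, was called higher in cKO thymus (limma adjusted p = 0.0418) but lost that call in 9 of 12 alternatives (up to 0.145). Fos, a subunit of AP-1, was at 36.02, 70.68 and 69.69 against 18.07, 22.55 and 6.459 FPKM in the thymus (limma adjusted p = 0.0223) and at 17.05, 16.92 and 15.12 against 79.39, 66.99 and 74.37 in the liver (7.44e-06). The thymus call of Fos was lost without cKO replicate 2 or 3 or YFP+ replicate 1 and with no filter on low values (adjusted p of up to 0.0794). Nr4a1, an early target of the T cell receptor, was at 1.377, 8.658 and 8.115 against 1.648, 1.715 and 1.258 FPKM in the thymus (limma adjusted p = 0.101) and lower in cKO liver by -1.86 ± 0.18 (limma adjusted p = 3.17e-04). Its thymus difference passed with array weights and without cKO replicate 1. Egr1, another early gene, was not called in either tissue (limma adjusted p = 0.595 and 0.834). Among the thymus cKO libraries, Fos and Nr4a1 were highest in replicates 2 and 3, whereas Ccl3 and Ccl4 were highest in replicate 2. Ccl4 was also at 5.420 and 4.230 FPKM in thymus YFP+ replicates 2 and 1. Whether the chemokine RNAs follow the early genes was not tested.

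**Figure D5:**
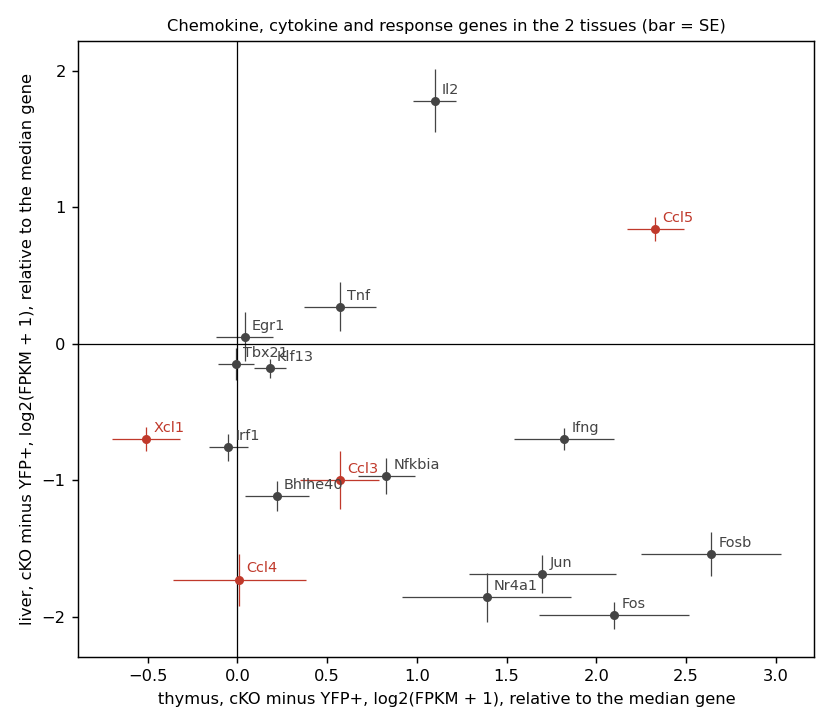
Difference between cKO and YFP+ in the thymus (x axis) and the liver (y axis), both on the log2(FPKM + 1) scale relative to the median tested gene, with SE bars; the 4 chemokine genes are red and selected cytokine, regulator and response genes grey. Ccl5 and Il2 lie in the upper right, Ifng, Fos, Jun and Nfkbia in the lower right, and Xcl1 in the lower left.

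The genes with the most similar pattern were sought among 8371 others tested in both tables, by the root mean square difference of log2(FPKM + 1) centred within each table, over the 12 libraries. They were chosen for their pattern, so their values are a description. Nearest to Ccl3 were Dnajb9, an endoplasmic reticulum chaperone (0.22), Cd69, an early activation receptor (0.25), and Cks2, a cell cycle regulator (0.26), against a spread of Ccl3 itself of 0.50. Nearest to Ccl4 were Tubb2a, a tubulin (0.36), the histone gene Hist1h4d (0.40) and the kinase gene Sik1 (0.40), with a spread of Ccl4 of 0.77. Nearest to Ccl5 were Snx9, a sorting nexin (0.25), and the receptor genes Klra12 (0.27) and Klri2 (0.29), with a spread of Ccl5 of 0.83. Klra12 belongs to the Ly49 family, whose close copies share reads. Nearest to Xcl1 were the small nucleolar RNA gene Snord104 (0.10), the NF-kB subunit gene Relb (0.13) and Lias, lipoic acid synthetase (0.14), with a spread of Xcl1 of 0.42. No chemokine gene was among the nearest 3 of another.

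Summed RNA of several marker sets of other cell types differed between the groups in the liver, and which cells held it was not tested. The summed FPKM of 14 myeloid and Kupffer cell markers was 26.9 to 31.7 in cKO and 66.4 to 90.1 in YFP+ libraries, with Lyz2 at 9.209 to 13.74 against 40.76 to 56.56, whereas Clec4f, which defines Kupffer cells, was at 0 in all YFP+ libraries. Macrophages also make Ccl3 and Ccl4. The sum of 7 DP thymocyte markers was 13.3 to 14.8 against 55.8 to 63.8, that of 5 B cell markers 1.92 to 3.34 against 10.4 to 11.7 and that of 5 erythroid markers 9.82 to 14.9 against 641.1 to 742.3. Both gamma-delta T cell markers in the tables were higher in cKO liver, with sums of 14.7 to 18 against 1.97 to 3.46. The sum of 6 NK cell and type 1 innate lymphoid markers was 572.6 to 615.1 against 463.7 to 597.7, most of it Fcer1g, which was not called. Of the 5 tested, 2 were called higher in cKO liver, where 7.49% of all genes were. They were Ncr1, an NK cell receptor, at 1.715 to 2.871 against 0.179 to 0.502 FPKM (limma adjusted p = 0.00209), and Klre1 at 189.0 to 196.5 against 124.7 to 154.6 (0.00614). NK cells also make Ccl5 and Xcl1. The part of these cells in the liver differences of Ccl3, Ccl4, Ccl5 and Xcl1 was not tested. In the thymus every myeloid marker was below 1 FPKM in every library, with sums of 0.846 to 2.36, and hepatocyte marker sums did not exceed 0.364. Erythroid marker sums ran from 0.179 to 107.6 in thymus cKO and from 0.152 to 0.851 in thymus YFP+ libraries, with Hbb-b1, a beta globin, at 40.78 FPKM in cKO replicate 1, the library that was also highest in Cxcl10 and Tyrobp. The NK marker sum was 161.6 to 231.3 in thymus cKO and 130.1 to 133.5 in YFP+ libraries. Eomes was at no more than 0.047, and Klre1 and Tyrobp were called higher of 4 tested. The sum of 8 heat shock genes was 1031 to 3156 against 841.1 to 869.9 in the thymus, with 5 of 7 tested called higher. Of all genes tested in the thymus, 2.64% were called higher. Hspa8 alone was at 732.6 to 1259 against 751.1 to 789.6 FPKM, and Hspa1a at 90.73, 743.2 and 751.1 against 4.787 to 6.182. The part of erythroid, NK marker and heat shock RNA in the thymus differences was not tested. In the liver 6 heat shock genes were tested, with 1 higher and 2 lower, where 27.2% of all genes were called.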

How the data were processed

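The authors deposited 1 table of FPKM per tissue. Per the submitters' processing notes, Cufflinks 2.1.1 and TopHat2 were used, the latter listed with version 2.8.0, on the mouse build mm9. FPKM of a library fall when a few transcripts are very abundant, and short transcripts such as these depend on fragment length selection. Per the labels' protocols, total RNA was turned into cDNA with a SMARTer low-input kit and 1 of 2 library kits, not told apart by sample. Groups were taken from titles, and 0 columns of values were left unmapped. Comparing low values between libraries of a tissue put their relative denominators at 0.923 to 1.13, and absolute depth is unknown.

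Values as deposited were tested with limma 3.58.1 (limma-trend, R 4.3.3) on log2(FPKM + 1) over every gene averaging 1 FPKM or more, Benjamini-Hochberg adjusted over all of them at 0.05. The difference between tissues was an interaction over all 12 libraries. The fit was tested on simulated data with known changes. Named genes are the 4 chemokines, the receptor genes Ccr1, Ccr3 and Xcr1, Ifng, Tnf, Csf2, Tbx21, Klf13, Nr4a1, Egr1, other chemokine genes with a group mean of at least 1 FPKM, up to 3 called genes per list and tissue whose groups do not overlap, and the 3 genes most similar in pattern to each chemokine. The members and lists were chosen with earlier results of these data known. Alternatives were a pseudocount of 0.1, no filter, median-ratio scaling, quantile normalization, array weights, a replicate block and leaving out each library, and, chosen after seeing the data, liver groups by the description field. Promoters were matched by symbol, and the files give no coordinates. One item of the lists is not reported here.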

Additional observations from a re-analysis of the deposited data

Results flagged for a closer look

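The origin difference (cKO minus YFP+) differed between liver and thymus, by the interaction in limma, for several genes named here. Values are the liver difference minus the thymus difference on the log2(FPKM + 1) scale, relative to the median gene, with the liver groups taken from the titles. With the liver groups of the description field these values change in size, in sign or in both, for Ccl3 to 0.44, Ccl4 to 1.74, Ccl5 to -3.15 and Ccl6 to 0.33. Among the chemokines these were Ccl3 (-1.57), Ccl4 (-1.74), Ccl5 (-1.49) and Ccl6 (-0.76). Ccl6 passed in only 4 of 18 alternatives. The neighbouring non-coding gene E230016K23Rik was at 1.31. Among cytokines Ifng was at -2.53, Il4 at 1.17 and Tnfsf14 at 0.53, the last passing in 7 of 18 alternatives. Among regulators Nfkbia was at -1.81, Bhlhe40 at -1.34, Irf1 at -0.72, Ikzf3 at 0.88 and Id2 at 0.53. Among early response genes Fosb was at -4.19, Fos at -4.10, Jun at -3.39, Nr4a1 at -3.25 and Dusp1 at -2.93. Among heat shock genes Hspa1b was at -5.77, Hspa1a at -5.74, Hspa1l at -4.65, Dnajb1 at -2.61 and Hsp90aa1 at -1.27. By the description field, calls were lost for Ccl3, Ifng, Tnfsf14, Nfkbia, Fosb, Fos, Jun, Nr4a1, Dnajb1 and Hsp90aa1 (limma adjusted p of 0.0589 to 0.82). Fos was then at -0.09, Fosb at -1.08, Jun at 0.01, Nr4a1 at 0.48, Nfkbia at 0.15 and Ifng at -1.11. Hspa1a and Hspa1b have almost the same sequence, so their separate values are uncertain.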

How the results depend on the processing

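Called chemokine genes numbered 4 in the liver under every alternative run, and 2 or 3 for the difference between tissues (3 as reported). In the thymus the count of 2 became 1, with Ccl5 left, with no filter on low values, with median-ratio scaling and with quantile normalization, and ranged from 1 to 2 without 1 library. Of 167 values of the 4 genes under these alternatives, 152 stayed on their side of the threshold, 15 lost a call (Xcl1 in the thymus and Ccl4 between tissues) and 0 changed direction with a call. The cause of the lost calls was not tested. With the liver groups of the description field, chosen after seeing the data, 3390 genes were called between tissues. Among named genes called under at least 1 of the 2 labels, the difference between tissues turned its sign for Ccl3 (0.44), Ccl4 (1.74), Xcl1 (1.23), Ccl6 (0.33), Ccl9 (-0.77), E230016K23Rik (-1.65), Il2 (-2.86), Tnfsf14 (-0.34), Nfkbia (0.15), Bhlhe40 (0.92), Irf1 (0.83), Nr4a1 (0.48), Jun (0.01), Dusp1 (1.01), Hsph1 (-2.05) and Gzmb (-1.21). Some named genes called under neither label, Xcr1 among them, turned their sign as well. The fit by the description field still called 3 chemokine genes, with Xcl1 in place of Ccl3. Without thymus cKO replicate 2, Ccl3 fell below the tested level. Fits without 1 library assume that the remaining 2 vary like the other group. The labels share replicate numbers, but the deviations of same-numbered libraries correlated at only -0.0785 to 0.0731, and not every library correlated best with its own number. The fit with a replicate block called 2, 4 and 3 chemokine genes in the thymus, the liver and between tissues, as without it, and 787 against 1429 genes of all tested in the thymus. Over all genes, thymus calls (240 higher, 1189 lower) became 367 and 422 with median-ratio scaling, 396 and 430 with quantile normalization, 801 in all with no filter, 2798 with array weights, and 472 to 2408 without 1 library. Liver calls (718 higher, 1889 lower) became 1003 and 1058, 1218 and 921 with the same rescalings, 3940 with array weights, and 1539 to 2640 without 1 library. Calls between tissues were 2634 against 1466 with array weights, and 983 to 1700 without 1 library. Depth is unknown, so how far counting noise limits the lowest genes, Ccl3 among them, cannot be stated.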

Other observations

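Genes of the secretory granule, which effector lymphocytes release beside these chemokines, differed among themselves. Of 4 tested, 0 were higher and 2 (Srgn, Gzma) lower in cKO thymus, where 1 was higher at an unadjusted p under 0.05. In cKO liver 1 (Gzmb) was higher and 2 (Srgn, Gzma) lower. Of all genes tested, 15.7% were called in the thymus and 27.2% in the liver. The Gzma call (granzyme A) was lost in the thymus with no filter on low values and without YFP+ replicate 1, 2 or 3 (limma adjusted p of up to 0.0685), and in the liver with median-ratio scaling and with quantile normalization (up to 0.0692). Srgn, the granule proteoglycan serglycin, was lower in cKO in both tissues, at 111.4, 112.7 and 121.0 against 153.7, 155.2 and 185.2 FPKM in the thymus (limma adjusted p = 0.00974) and 358.8, 369.3 and 349.9 against 536.4, 487.3 and 443.2 in the liver (limma adjusted p = 0.00674, and 0.0627 with median-ratio scaling). Gzmb, granzyme B, was higher in cKO liver, at 647.3, 614.5 and 656.9 against 439.0, 394.5 and 398.5 FPKM (limma adjusted p = 7.64e-04), the direction of Ccl5. In the thymus Gzmb was at 319.2, 287.1 and 256.5 against 214.6, 240.7 and 236.2 FPKM and was not called (limma adjusted p = 0.0541), though it passed with median-ratio scaling (0.0133) and with quantile normalization (0.0425).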
